A study of Mus musculus with 2 samples.

Results

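The cathepsins are proteases, most of them lysosomal, and the cystatins and stefins are the proteins that inhibit the papain-like members among them. The members were taken by symbol: every non-control spot whose gene name was Cts followed by letters or digits, Cst followed by a number or by a, b or c, or Stfa followed by a digit. This gave 57 spots, 48 probes and 37 genes, of 59305 spots, 56603 probes and 37008 gene names on the arrays. By role they were 10 papain-like, 2 aspartic, 2 serine and 9 placental cathepsins, 9 secreted cystatins and 5 stefins.

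The data were 1 array of lymph node stromal cells from tumor-draining nodes and 1 array from nodes of normal mice. The tumor-draining nodes were taken 2 weeks after 4T1 mammary carcinoma cells were placed under the skin at the mammary gland, and the normal mice carried no tumor. Both samples came from female mice, the protocol names the strain C57BL/6, and cells lacking CD45, the surface protein that marks leukocytes, were sorted by flow cytometry for total RNA. 4T1 is known as a line of BALB/c origin, and the sources used here do not give the number of mice behind each sample, their age or any pooling. With 1 array in each group no test was possible, so every difference below describes these 2 samples, and precision is limited by their number.

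Papain-like cathepsins cut proteins in lysosomes and endosomes with a cysteine at the active site, cathepsins D and E use aspartic acids, and cathepsins A and G use a serine. In antigen-presenting cells the papain-like enzymes trim the invariant chain and produce peptides for class II molecules, in cytotoxic cells and myeloid granules cathepsin C activates other proteases, and in connective tissue cathepsins K, L and B degrade matrix. Cystatins are mostly secreted, and stefins stay in the cytosol.

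The sorted cells were first compared with their label. All 6 pan-leukocyte genes were well above background on both arrays, and each was higher by 2-fold or more in the tumor-draining sample (median log2 difference 1.79). Their summed level, in units of each array's 75th percentile, was 202 on the tumor-draining array against 55.02 on the normal array. Ptprc, which encodes CD45, had a signal of 17432 on the tumor-draining array against 3702 on the normal array. All 9 fibroblastic reticular cell markers and all 7 endothelial markers were detected on both, and each was lower by 2-fold or more in the tumor-draining sample (median log2 differences -1.96 and -2.84). Both samples therefore held RNA of leukocyte genes as well as of stromal genes, in unequal amounts. In such bulk samples, fewer cells of a type and less RNA per cell cannot be told apart.

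Of the 37 genes, 21 were well above background on both arrays, Cst6 was so on the normal array alone, and 15 were so on neither. Among the 21, 10 were higher by 2-fold or more on the tumor-draining array and 5 were lower by as much. Of all 22152 genes measured on both arrays, 11.1% were higher and 15.9% lower by this rule. The remaining 6 lay within 2-fold. The 23 cathepsins held 14 of the measured genes, 5 of them higher, 4 lower and 5 within 2-fold, with a median log2 difference of 0.14. The 14 cystatins and stefins held 7, of which 5 were higher, 1 was lower and 1 lay within 2-fold, with a median of 2.97. A median covers measured genes alone, and these 7 include the 4 near-copy stefin A genes, whose values may not be independent. The median and the summed level went opposite ways. Over genes above background on each array, cystatins and stefins summed to 44.5 on the tumor-draining array against 91.2 on the normal array. Cathepsins summed to 193 on the tumor-draining array against 263 on the normal array. Differences are log2 of the processed signal after each array was scaled to its 75th percentile (358 on the tumor-draining array, 374 on the normal array), tumor-draining minus normal, and the median over all genes was 0.12. Signals are the processed intensities of 1 probe per gene, so signals of different genes are not comparable. A summed level over genes is therefore weighted to the brightest probes and is no measure of cell number.

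**Figure D1:**
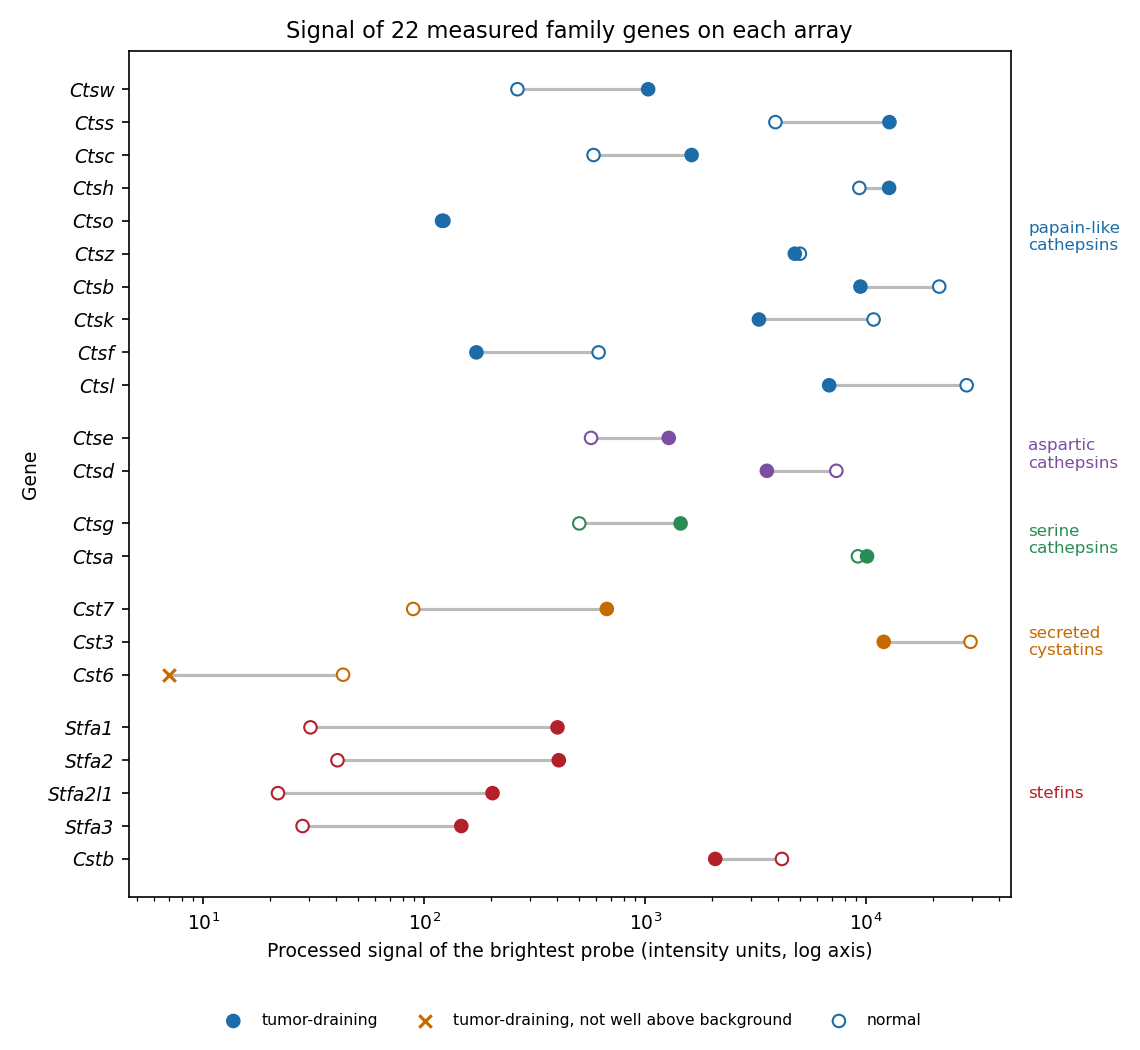
Processed signal (log axis) of the brightest probe of the 22 genes measured on one array or both, by role, with filled points for the tumor-draining array, open points for the normal array and a cross where the tumor-draining value was not well above background. The stefin A genes and Cst7 lie farthest to the right on the tumor-draining array relative to the normal array, Ctsl, Ctsk, Ctsf, Cst3 and Cst6 lie to the left, and the Ctso points coincide.

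Of the 21 genes measured on both arrays, the stefin A genes Stfa1, Stfa2 and Stfa2l1 had the highest log2 differences, and Stfa3 came after Cst7. Human has 1 gene for stefin A, an inhibitor of cathepsins in the cytosol, and mouse has a cluster of copies on chromosome 16 that are known as transcripts of neutrophils and other myeloid cells. Stfa1 had a signal of 401 on the tumor-draining array against 30.6 on the normal array, a log2 difference of 3.78 or 13.7-fold. Stfa2 had 407 on the tumor-draining array against 40.5 on the normal array (log2 difference 3.39, 10.5-fold). Stfa2l1 had 204 on the tumor-draining array against 21.8 on the normal array (log2 difference 3.29, 9.76-fold). All of these rank near the top of the whole comparison: of 22152 genes, 25 had a larger log2 difference than Stfa1, 59 a larger one than Stfa2 and 72 a larger one than Stfa2l1. Stfa3 had 147 on the tumor-draining array against 28.1 on the normal array (log2 difference 2.45, 5.46-fold), and 313 genes had a larger difference.

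The normal-array signals of these 4 genes were low, though well above background, and probes that passed as above background there had signals down to 7.72. With a normexp background correction, which draws low signals together, the log2 differences were 2.34 for Stfa1, 2.26 for Stfa2, 1.60 for Stfa2l1 and 1.31 for Stfa3. Each stayed above 2-fold. The probe of Stfa1 lies at chr16:36285398-36285457 (plus strand), that of Stfa2 at chr16:36404032-36404089 (minus strand) and that of Stfa3 at chr16:36450693-36450752 (minus strand), all on the mm9 build as the array files give them. The probe of Stfa2l1 spans chr16:36160118-36161876 (plus strand), so that its 60 bases, shown because they were read against 1759 bases of genome, join sequence that lies apart in the genome:
Stfa2l1 probe: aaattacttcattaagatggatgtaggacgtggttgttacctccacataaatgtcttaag

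Because the stefin A genes are near copies, their probes were compared with each other. The longest run shared by any pair was 9 bases, between Stfa1 and Stfa2, and the other pairs shared runs of 5 to 7 bases. The best local alignment of the Stfa1 and Stfa2 probes held 30 identical bases of 37. Whether transcripts of one copy bind the probe of another was not tested, and the values of the 4 genes may therefore not be independent.

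The sequence before the start of these 4 genes was also alike. The 250 bases upstream of the RefSeq start (GRCm38.p6) were 81.8% to 92.3% identical between pairs, with the highest identity between Stfa2 and Stfa2l1. They are printed because the 4 genes were higher together, with capitals for the 3 runs of at least 12 bases that all of them share, which are 15, 13 and 13 bases long. The positions are chr16:36276898-36277147 (plus strand) for Stfa1, chr16:36408364-36408613 (minus strand) for Stfa2, chr16:36156561-36156810 (plus strand) for Stfa2l1 and chr16:36455393-36455642 (minus strand) for Stfa3.
Stfa1: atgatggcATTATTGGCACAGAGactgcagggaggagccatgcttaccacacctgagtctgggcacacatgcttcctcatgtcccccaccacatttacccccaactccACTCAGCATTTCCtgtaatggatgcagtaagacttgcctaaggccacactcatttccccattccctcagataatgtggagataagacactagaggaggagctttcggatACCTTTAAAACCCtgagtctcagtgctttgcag
Stfa2: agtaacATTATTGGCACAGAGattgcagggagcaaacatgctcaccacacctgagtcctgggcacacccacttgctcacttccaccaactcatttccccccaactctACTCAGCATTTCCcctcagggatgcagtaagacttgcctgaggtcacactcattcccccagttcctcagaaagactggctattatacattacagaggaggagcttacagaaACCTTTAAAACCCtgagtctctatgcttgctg
Stfa2l1: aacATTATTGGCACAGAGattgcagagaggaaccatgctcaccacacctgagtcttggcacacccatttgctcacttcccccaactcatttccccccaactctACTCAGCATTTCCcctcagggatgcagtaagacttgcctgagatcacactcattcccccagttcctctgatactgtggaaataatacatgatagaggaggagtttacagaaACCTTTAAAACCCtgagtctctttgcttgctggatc
Stfa3: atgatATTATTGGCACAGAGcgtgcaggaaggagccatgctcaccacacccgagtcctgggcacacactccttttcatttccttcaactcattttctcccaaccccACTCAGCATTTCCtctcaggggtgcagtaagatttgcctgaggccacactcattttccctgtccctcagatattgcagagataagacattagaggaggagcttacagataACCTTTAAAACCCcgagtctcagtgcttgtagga
The run nearest the start begins 32 to 36 bases upstream in each gene. Shared sequence is a description of these copies and says nothing of what binds there.

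A list of 10 neutrophil markers was set beside the stefin A genes. All 10 were well above background on each array. Of them 1, Mmp8, a collagenase of neutrophil granules (log2 difference 1.59), was higher by 2-fold or more, 1 (Camp, a granule peptide, -1.18) was at least 2-fold lower, and the other 8 lay within 2-fold. Their median log2 difference was 0.38, and their summed level was 126 on the tumor-draining array against 109 on the normal array. S100a8 and S100a9, abundant proteins of neutrophil cytosol, had log2 differences of 0.22 and 0.26. None of these markers differed by as much as any of the 4 stefin A genes, and with the normexp correction the highest marker was at 0.93 beside 1.31 for Stfa3. Scaled to the spike-ins, 7 of the 10 markers were at least 2-fold higher and their median was 1.20. With that scaling 46.8% of all genes were at least 2-fold higher, and the median over all genes was 0.94.

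Cstb, the stefin expressed in most cells, went the other way. Its signal was 2075 on the tumor-draining array against 4158 on the normal array, a log2 difference of -0.94 or 1.92-fold lower, just inside the 2-fold limit. Its probe lies at chr10:77890058-77890117 (mm9, plus strand). The difference of Stfa1 exceeded that of Cstb by 4.72 on the log2 scale, or 26.3-fold. No constant scaling of an array alters this value, but with the normexp correction it was 3.27, or 9.68-fold. After quantile normalization, cyclic loess or in the authors' deposited table, Cstb passed the 2-fold limit as lower.

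Among the secreted cystatins, Cst7 was higher and Cst3 and Cst6 were lower. Cst7 encodes cystatin F, an inhibitor kept in the endosomes and granules of cytotoxic lymphocytes and myeloid cells, where cathepsin C is one of its targets. Its signal was 670 on the tumor-draining array against 89.1 on the normal array, a log2 difference of 2.97 or 7.85-fold, and 119 genes had a larger one. With the normexp correction its log2 difference was 2.35. Cst3 encodes cystatin C, a secreted inhibitor made by most tissues. Its brighter probe had 12013 on the tumor-draining array against 29671 on the normal array, a log2 difference of -1.24 or 2.37-fold lower, and its other probe had a log2 difference of -1.15. Scaled to the spike-in RNAs, Cst3 lay within 2-fold at -0.42. The differences of Cst7 and Cst3 were 4.22 apart on the log2 scale, or 18.6-fold.

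Cst6 encodes cystatin E/M, an inhibitor of legumain and of cathepsins L and B. Its signal was 7.0, not well above background, on the tumor-draining array against 42.9 on the normal array. Set against the dimmest probe that passed as above background on the tumor-draining array (8.27), it was at least 4.97-fold lower there. Of the 1528 genes above background on the normal array alone, 35.3% had a bound of at least 2-fold lower. The probe of Cst7 lies at chr2:150404490-150404549 (plus strand), the brighter probe of Cst3 at chr2:148697681-148697740 (minus strand) and that of Cst6 at chr19:5347982-5348041 (minus strand), all on mm9. Cst8, Cst9, Cst11, Cst12 and Cst13, cystatins known mainly from the reproductive tract, and Cst10, known from cartilage, were above background on neither array.

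**Figure D2:**
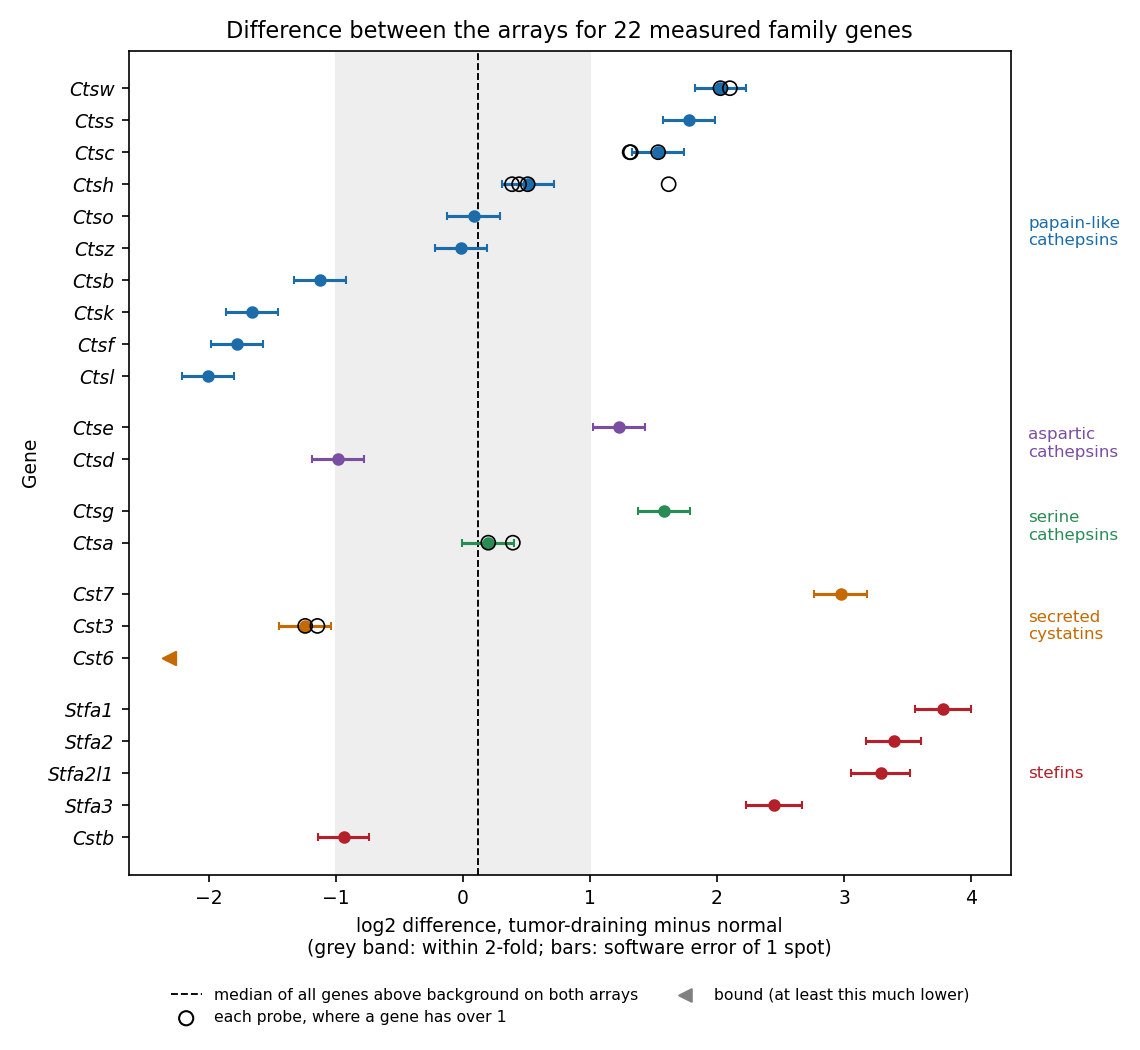
Log2 difference, tumor-draining minus normal, of the same 22 genes by role, with bars for the software error of 1 spot, open circles for each probe of a gene with several and a left-pointing triangle for the bound of Cst6. The stefin A genes and Cst7 lie at 2.45 or more, Cst3 and Cst6 lie below -1, and both proteases and inhibitors fall on either side of the grey 2-fold band.

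The papain-like cathepsins divided. All 10 were measured on both arrays: 3 were higher by 2-fold or more (Ctsw, Ctss, Ctsc), 4 lower by as much (Ctsl, Ctsf, Ctsk, Ctsb) and 3 within 2-fold (Ctsh, Ctso, Ctsz). Their median log2 difference was 0.034, beside 0.12 over all genes. The 10 differences ran between -2.01 for Ctsl and 2.03 for Ctsw.

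Ctss, the cathepsin that removes the invariant chain from class II molecules in antigen-presenting cells, had a signal of 12751 on the tumor-draining array against 3884 on the normal array. This was a log2 difference of 1.78, or 3.43-fold. Ctsw, a cathepsin of natural killer and CD8 T cells, had 1031 on the tumor-draining array against 264 on the normal array (log2 difference 2.03), and its second probe had 442 on the tumor-draining array against 108 on the normal array (log2 difference 2.10). Both Ctsw probes, at chr19:5465315-5465374 and chr19:5466250-5466309 (mm9, minus strand), gave a difference of about the same size. Ctsc, the dipeptidyl peptidase that activates granule serine proteases, had 1622 on the tumor-draining array against 584 on the normal array (log2 difference 1.54, 2.90-fold), and its 3 probes ranged between 1.31 and 1.54. Its brightest probe lies at chr7:95458436-95458495 (mm9, plus strand).

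Ctsl, an endopeptidase of most lysosomes that also processes the invariant chain in thymic epithelium, had the lowest log2 difference of the cathepsins. Its main probe, at chr13:64465287-64465346 (mm9, minus strand), was printed 10 times. Its lowest, median and highest spot signals were 6294, 6885 and 7376 on the tumor-draining array against 27093, 28704 and 30125 on the normal array. The spots of the arrays did not overlap, and the log2 difference of their means was -2.01, or 4.02-fold. The log2 SD over the spots was 0.076 on the tumor-draining array and 0.044 on the normal array, an error of printing and reading that does not cover differences between mice. A second Ctsl probe, with a signal of 5.83 on the tumor-draining array, not well above background, against 12.9 on the normal array, adds no measured difference.

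Ctsk, the collagen-degrading cathepsin of osteoclasts and fibroblasts, had a signal of 3272 on the tumor-draining array against 10806 on the normal array, a log2 difference of -1.66 or 3.16-fold lower. Ctsf, a cathepsin found in most tissues, had 172 on the tumor-draining array against 615 on the normal array (log2 difference -1.78, 3.42-fold lower). Ctsb, among the most abundant lysosomal proteases, had 9421 on the tumor-draining array against 21423 on the normal array (log2 difference -1.12, 2.18-fold lower). The probes of Ctsf, at chr19:4860454-4860513, and of Ctsb, at chr14:63761826-63761885, lie on the plus strand of mm9. These differences exceeded the usual disagreement between probes of 1 gene (median SD 0.27 over 7599 genes), which does not cover differences between mice. Ctsk, Ctsf and Ctsb had 1 probe each, so their own disagreement is unknown. When the arrays were instead scaled to their spike-in RNAs, the log2 differences were -0.84 for Ctsk, -0.96 for Ctsf and -0.30 for Ctsb, all within 2-fold. Ctsl stayed lower at -1.19. With that scaling 12 of the 21 family genes were higher by 2-fold or more and 1 was lower, where 46.8% of all genes were higher and 8.08% lower. The sources used here do not say whether both samples received the same amount of spike-in.

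Ctss and Ctsk are neighbors on chromosome 3. Their probes, at chr3:95360162-95360221 and chr3:95313165-95313224 (mm9, plus strand), lie 46937 bases apart, and the RefSeq table (GRCm38.p6) lists 1 gene, Gm40096, between them. Their differences were 3.44 apart on the log2 scale, or 10.8-fold. Their upstream sequences, shown because the neighbors differed in direction, were 57.3% identical over 225 aligned bases, and lie at chr3:95526536-95526785 (plus strand) for Ctss and chr3:95498960-95499209 (plus strand) for Ctsk (GRCm38.p6). Capitals mark GAAA followed by any 2 bases and GAAA, a pattern of interferon-responsive promoters.
Ctss: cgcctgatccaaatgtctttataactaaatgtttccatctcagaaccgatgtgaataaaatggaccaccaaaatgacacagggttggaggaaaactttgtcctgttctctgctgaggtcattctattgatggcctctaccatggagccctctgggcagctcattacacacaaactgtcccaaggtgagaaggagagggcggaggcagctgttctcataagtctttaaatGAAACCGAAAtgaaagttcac
Ctsk: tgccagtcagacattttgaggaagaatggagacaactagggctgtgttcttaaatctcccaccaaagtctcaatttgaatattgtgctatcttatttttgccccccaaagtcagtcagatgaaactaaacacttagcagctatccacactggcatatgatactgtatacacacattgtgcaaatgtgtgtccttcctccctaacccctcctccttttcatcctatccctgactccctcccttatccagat
The pattern, searched on both strands, begins 21 bases upstream in Ctss, was in no other of the 31 promoters of 30 family genes in the RefSeq table, and was in 2.98% of all 32851 promoters there.

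Ctsh, Ctsz and Ctso showed little difference. Ctsz, a carboxypeptidase, had a signal of 4755 on the tumor-draining array against 5013 on the normal array. Ctso, a little-studied member, had 122 on the tumor-draining array against 120 on the normal array. Ctsh, an aminopeptidase, had 12704 on the tumor-draining array against 9316 on the normal array at its brightest probe, a log2 difference of 0.51. The Ctsh probes disagreed: 3 of the 4 above background on both arrays gave 0.39 to 0.51, and the other, at chr9:89950039-89950098 (mm9, plus strand), gave 1.62. Scaled to the spike-ins, Ctsh passed the 2-fold limit as higher. On mm9, the probes lie at chr2:174253228-174253287 (minus strand) for Ctsz, chr3:81760551-81760610 (plus strand) for Ctso and chr9:89970828-89970887 (plus strand) for the brightest of Ctsh. The direction of Ctsz, at a log2 difference of -0.015, and of Ctso, at 0.083, flipped with the scaling.

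The aspartic and serine cathepsins each held 1 higher gene. Ctse, an endosomal protease of stomach and immune cells, had a signal of 1279 on the tumor-draining array against 569 on the normal array (log2 difference 1.23, 2.35-fold). Ctsd, the main aspartic protease of lysosomes, had 3554 on the tumor-draining array against 7331 on the normal array (log2 difference -0.98, 1.98-fold lower). Ctsd thus fell just short of the 2-fold limit and passed it after quantile normalization, cyclic loess and in the authors' deposited table. Ctsg, a protease of neutrophil and mast cell granules, had 1446 on the tumor-draining array against 503 on the normal array (log2 difference 1.58, 3.0-fold). Ctsa, the carboxypeptidase that protects neuraminidase 1 in lysosomes, had 10094 on the tumor-draining array against 9179 on the normal array, a log2 difference of 0.20 that became -0.20 after cyclic loess and passed the 2-fold limit when scaled to the spike-ins. On mm9, the probes lie at chr1:133571990-133572049 (plus strand) for Ctse, chr7:149561962-149562021 (minus strand) for Ctsd, chr14:56718795-56718854 (minus strand) for Ctsg and chr2:164665023-164665082 (plus strand) for the brighter of Ctsa.

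The 9 placental cathepsins, Cts3, Cts6, Cts7, Cts8, Ctsj, Ctsll3, Ctsm, Ctsq and Ctsr, form a rodent cluster expressed in trophoblast. None was well above background on either array. Together with the 6 unmeasured cystatins they made up the 15 unmeasured genes, whose highest signal was 8.87 on the tumor-draining array and 6.80 on the normal array. No difference between the groups can be read from them.

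Lists of genes that work with the family were described by counts. Of 32 lysosomal genes outside the family, all measured on each array, 1 was higher by 2-fold or more (Acp5, an acid phosphatase, 1.80), 11 were at least 2-fold lower and 20 lay within 2-fold, with a median log2 difference of -0.54 beside 0.12 over all genes. The lowest were Scarb2, a receptor that carries glucocerebrosidase to lysosomes (-1.64), and Sort1, a sorting receptor (-1.58). Neu1, the neuraminidase that cathepsin A protects, had a log2 difference of 0.89. Scaled to the spike-ins, the lysosomal median was 0.28, beside 0.94 over all genes. With that scaling 6 lysosomal genes were at least 2-fold higher and none was lower by as much. Of all genes, 46.8% were then higher and 8.08% lower. With the mean over all of a gene's probes in place of the brightest, 6 of the 32 lysosomal genes were lower by 2-fold or more, beside 14.6% of all genes. With the brightest probe these were 11 of 32 and 15.9%.

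Of 11 class II genes, 10 were at least 2-fold higher and none was lower, with a median log2 difference of 2.46. Ciita, the transactivator of class II genes, had a log2 difference of 2.93, H2-Oa 2.70, and at the low end H2-Ab1 1.59 and Ifi30, a lysosomal thiol reductase, 0.75. Granule proteases were listed because cathepsin C is known to activate many of that kind. Of 9 listed, 4 were at least 2-fold higher, none was at least 2-fold lower and the median log2 difference was 0.93. Gzmk (3.89) and Gzmb (2.56), granzymes of cytotoxic cells, were the highest, and Tpsb2 (-0.49) and Cma1 (-0.18), mast cell proteases, the lowest. Gzmk was dim, with a signal of 136 on the tumor-draining array against 9.57 on the normal array. With the normexp correction 3 of the 9 were higher, beside 6.20% of all genes, and the highest was 1.94. With the filter on mean signals under 100, 2 of 7 were higher, beside 10.9% of all genes, and the median was 0.59.

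Markers of other cells differed alongside the family. All 7 cytotoxic and natural killer markers were at least 2-fold higher, with a median log2 difference of 2.32 and a summed level of 19.5 on the tumor-draining array against 4.08 on the normal array. Each of the 7 markers of B cells was higher by 2-fold or more too, with a median of 2.34 and a summed level of 110 on the tumor-draining array against 32.3 on the normal array. The 10 higher family genes were Ctsw, Cst7, Ctsc, Ctss, Ctse, Ctsg and the 4 stefin A genes, and none was assigned to a marker list. Of 12 macrophage and monocyte markers 8 had a log2 difference above 0, none was at least 2-fold higher and 3 were lower by as much (Marco, Mrc1 and Ly6c2). Their median was 0.31 and their summed level, of which Ly6c2 made up 64.7% on the normal array, was 64.6 on the tumor-draining array against 123 on the normal array. Of 8 dendritic cell markers, 7 were above background on both arrays (Xcr1 was not), 3 were higher and 1 was lower. Their median was 0.55, and Ccr7 made up 98.0% of their summed level on the tumor-draining array, which was 149 on the tumor-draining array against 33.9 on the normal array. Of 5 basophil and mast cell markers 3 were higher, with a median of 1.26 and a summed level of 3.32 on the tumor-draining array against 1.86 on the normal array. The fibroblastic reticular markers, 9 of 9 lower, had a summed level of 364 on the tumor-draining array against 945 on the normal array. For the endothelial markers, 7 of 7 lower, it was 6.36 on the tumor-draining array against 39.8 on the normal array. Of the family genes measured on both arrays, the 5 lower were Ctsl, Ctsk, Ctsf, Ctsb and Cst3, likewise assigned to no list. Scaled to the spike-ins, 7 macrophage and monocyte markers were higher and 2 lower, and 5 of the 9 fibroblastic reticular markers were lower by 2-fold or more. Of all genes, 46.8% were higher and 8.08% lower by 2-fold or more with that scaling. With the normexp correction, 4 of the 7 cytotoxic markers and 1 of the 5 basophil and mast cell markers were higher by as much. Except Xcr1, every listed marker was above background on both arrays. The part that each cell type had in the family's differences was not tested.

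**Figure D3:**
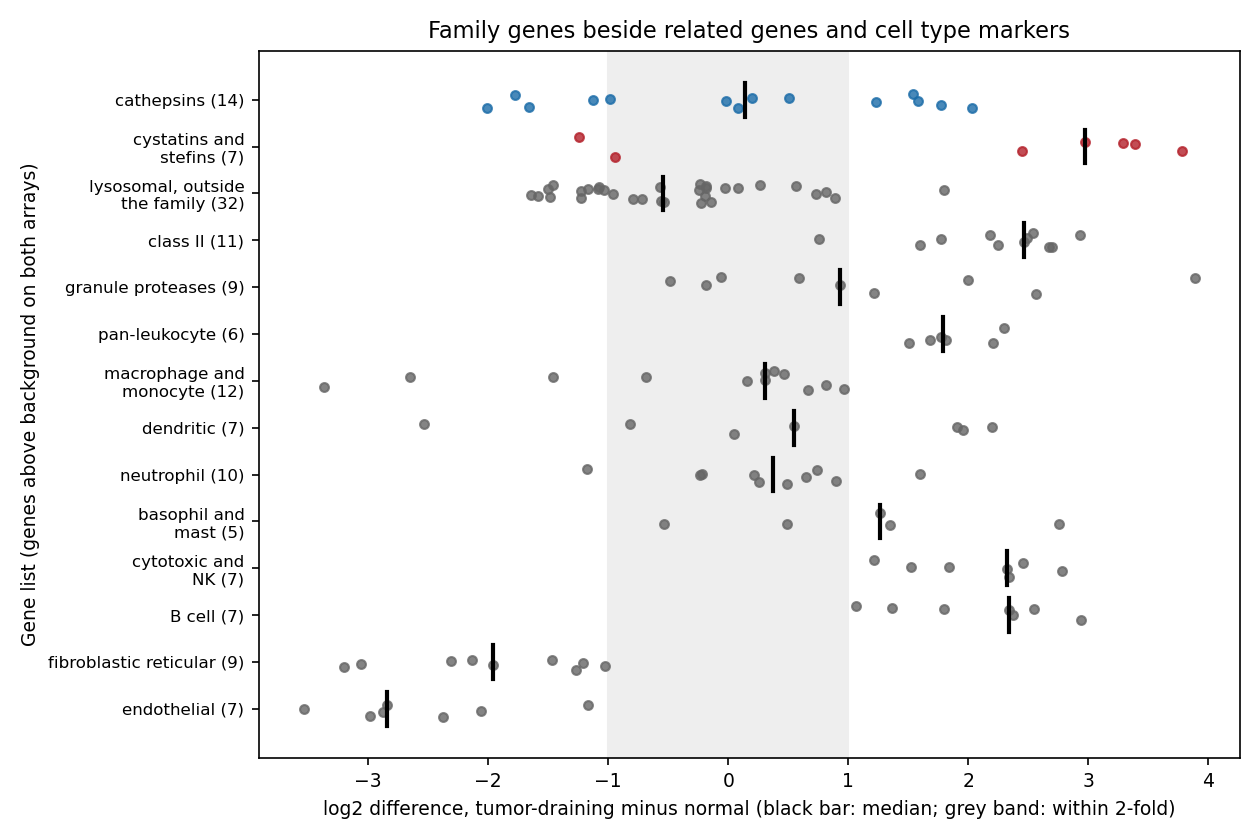
Log2 differences, tumor-draining minus normal, of genes above background on both arrays in the cathepsins, in the cystatins and stefins, in the lists of genes that work with them and in the cell type marker lists, with black bars for medians and numbers of genes in brackets. Class II, pan-leukocyte, cytotoxic and B cell genes lie above 0, fibroblastic reticular and endothelial genes below -1, and the neutrophil markers lie mostly within the grey 2-fold band.

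A sequence search for motifs of lysosomal and immune promoters looked at the 31 promoters of 30 family genes in the RefSeq table, over the 250 bases before the start and on both strands. The E-box CACGTG, bound by Tfeb and its relatives, occurred in 6.02% of all 32851 promoters and in 5 family genes: Ctsa, Ctsd, Ctsf, Ctsl and Ctsll3. None of the 8 genes at least 2-fold higher that have a promoter in the table held it, and 2 of the 4 lower genes did (Ctsf and Ctsl). At a share of 6.02%, absence from 8 genes says little. Extended to TCACGTGA, which contains the E-box, it occurred in Ctsa and Ctsd and in 0.785% of all promoters. The E-boxes of the genes measured here are shown in capitals, each in a 40-base window at chr2:164833733-164833772 (plus strand) for Ctsa, chr7:142388038-142388077 (minus strand) and chr7:142387903-142387942 (minus strand) for Ctsd, chr19:4855069-4855108 (plus strand) for Ctsf and chr13:64370731-64370770 (minus strand) for Ctsl (GRCm38.p6).
Ctsa: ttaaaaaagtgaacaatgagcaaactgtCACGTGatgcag
Ctsd first: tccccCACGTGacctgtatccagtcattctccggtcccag
Ctsd second: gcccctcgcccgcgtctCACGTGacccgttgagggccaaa
Ctsf: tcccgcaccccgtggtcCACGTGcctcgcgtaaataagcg
Ctsl: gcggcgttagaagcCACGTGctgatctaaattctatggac
The E-box begins 12 bases upstream in Ctsa, 245 and 98 bases upstream in Ctsd, 79 in Ctsf and 236 in Ctsl.

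AGGAAGT, a core of sites of the myeloid and lymphoid factor PU.1, occurred in 7.69% of all promoters and in 8 family genes, of which Cst7, Ctsc and Ctsg were at least 2-fold higher, Ctso lay within 2-fold and Cts6, Cts8, Ctsj and Ctsq were not measured. None of the 4 lower genes with a promoter in the table held it, which at a share of 7.69% says little. The windows of the higher genes lie at chr2:150570335-150570374 (plus strand) for Cst7, chr7:88277917-88277956 (plus strand) for Ctsc and chr14:56102758-56102797 (minus strand) for Ctsg, with the match or its complement in capitals.
Cst7: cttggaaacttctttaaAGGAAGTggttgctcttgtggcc
Ctsc: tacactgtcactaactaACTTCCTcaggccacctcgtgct
Ctsg: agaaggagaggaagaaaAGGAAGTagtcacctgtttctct
Other letters searched were the longer GAGGAAGT (2 family genes, 2.44% of all promoters), the overlapping AGAGGAAG (4 and 3.67%), CCGGAAGT (none and 2.88%), TTGCNNAA (5 and 9.56%), the looser TTNNGNAA (13 and 36.8%), TTGCGCAA (none and 0.164%), TTCNNNGAA (2 and 7.02%), TATAAA (7 and 12.4%) and TCACGTG (2 and 3.13%), and some of these overlap each other. Of these, TTGCNNAA was in 1 of the 8 higher and 2 of the 4 lower genes, and TTNNGNAA in 4 and 2. TTCNNNGAA and TATAAA were each in 2 higher genes, GAGGAAGT and AGAGGAAG each in 1, and none of these in a lower gene. TCACGTG was in no higher or lower gene. Such matches are descriptions of letters in a window, with no measure of binding here.

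Across the processing tried, the direction of every gene at least 2-fold higher or lower was kept, and 15 of the 21 genes kept their call under scaling to the spike-ins. The log2 differences of Ctsl ranged between -2.44 and -1.54 and those of Cst7 between 2.35 and 3.0 under the settings other than the spike-ins.

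**Figure D4:**
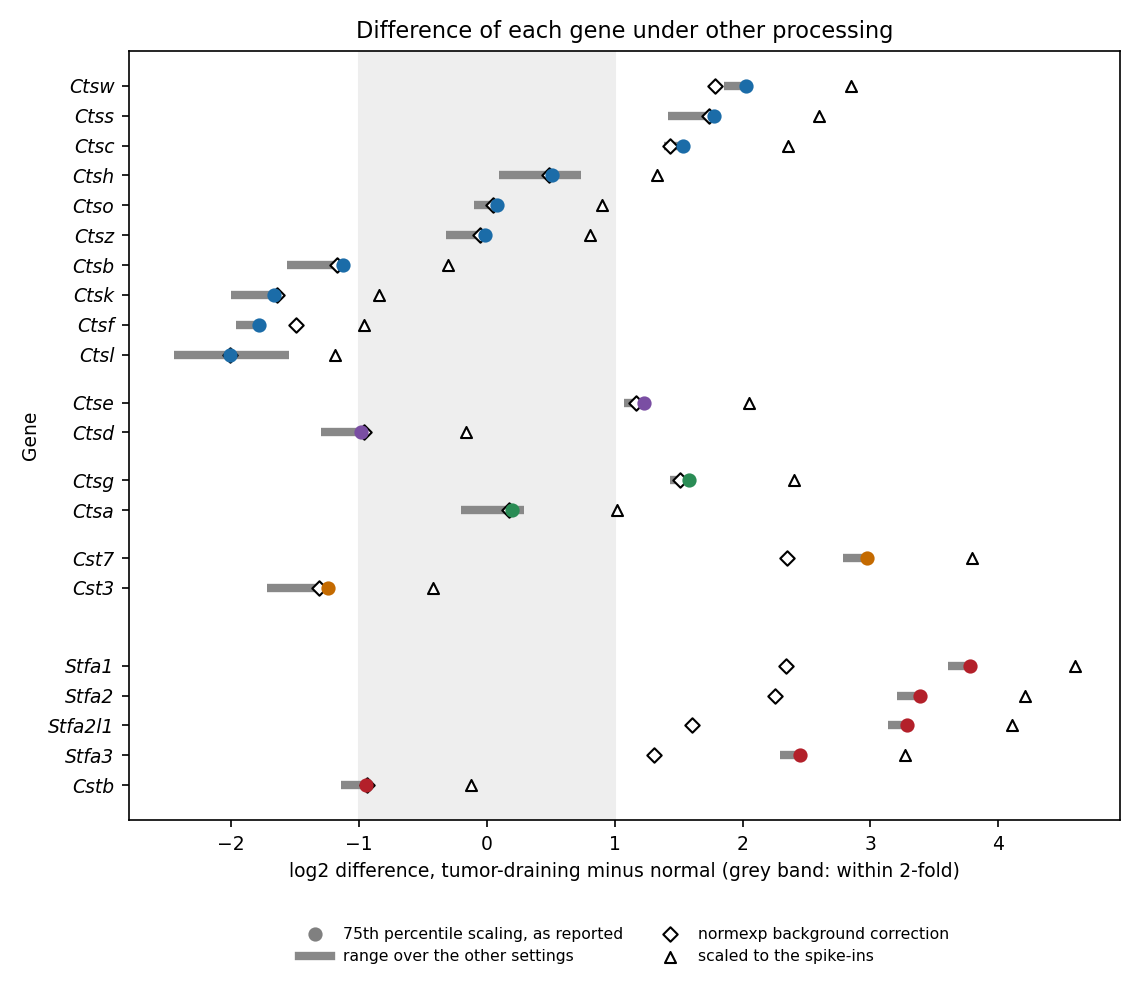
Log2 difference, tumor-draining minus normal, of the 21 genes above background on both arrays under the reported processing (filled point), normexp background correction (diamond), scaling to the spike-ins (triangle) and the other settings (grey bar). The spike-in values lie to the right of the reported ones for each gene, and the normexp values of the stefin A genes and Cst7 lie to the left.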

How the data were processed

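Total RNA of the sorted cells was amplified and carried Cy3 as the only dye on Agilent mouse arrays, 1 for each group, per the labels' protocols. The file headers place both on the same slide and scan. The deposited scanner files hold linear intensities with the background subtracted by Feature Extraction 12.0.3.1 (protocol GE1_1200_Jun14), and probe positions on mm9, per the file headers. Feature Extraction 10.7 and limma are the tools named in the submitters' processing notes, without a step. A value table, also deposited by the authors, is on a log2 scale with no stated centring. Each column correlated with the log2 signal of its array (r = 0.9999), medians were 4.86 (tumor-draining) and 4.85 (normal), and after sorting the columns lay within 0.17 of each other, and the table was used as an alternative.

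The log2 processed signal was reduced by the 75th percentile over non-control spots of its array. Flagged non-uniform and outlier spots were left out, none of them a family spot, and no family spot was saturated. Spots of a probe were averaged, and each gene was read from the probe that was brightest on average. A probe was above background where the software marked 50% or more of its spots so. Of all probes, 35570 on the tumor-draining array and 36783 on the normal array were above background. Names came from a RefSeq table (GRCm38.p6) by accession for 32992 probes, by symbol for 10224 and by synonym for 520, and 12867 kept the name in the files. Array positions carry no exon or UTR annotation.

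Calls were by size (2-fold). The software error of the log2 difference was 0.20 to 0.24 for the 21 family genes above background on both arrays and 0.41 for Cst6. The median spot SD was 0.050 over 298 probes. Every family gene above background on at least 1 array is named with its values, along with the 2 highest and 2 lowest genes at most of each list, and S100a8, S100a9, Ly6c2, Xcr1 and Ptprc, which were chosen after their values were seen. The members, lists, roles and motifs were chosen with earlier results of these data known. Alternatives were normexp correction (offset 50), quantile, cyclic loess (span 0.3), median and spike-in scaling, other filters and probe summaries, flagged spots kept and the authors' table. The filter on signals under 100 was applied to the mean over both arrays. Work used R 4.3.3 with limma 3.58.1, and Python 3.11.15 with numpy 2.4.6, pandas 2.3.3 and Biopython 1.88.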

Additional observations from a re-analysis of the deposited data

How the results depend on the processing

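Of 11 alternatives, 7 left the call of each family gene they could test as it was, with Stfa3 dropped by the filter on mean signals under 100. Of these, keeping flagged spots could not alter a family call, because no family spot was flagged. The filters chose which genes were counted and left their values as they were. Means over probes could move only genes with several probes. After quantile normalization, cyclic loess and in the authors' deposited table, Ctsd and Cstb became lower and 7 genes in all were lower in place of 5. Of all genes, 15.8%, 18.3% and 15.7% were lower in these settings, in that order, in place of 15.9%. Scaled to 6 spike-in probes, whose median log2 difference was -0.82 before scaling, 12 genes were higher and 1 was lower. The medians were then 0.96 for cathepsins and 3.79 for cystatins and stefins, in place of 0.14 and 2.97. Over all genes the median was 0.94 with that scaling, in place of 0.12. The cathepsin median was -0.15 after cyclic loess, where the median over all genes was -0.067. The median of cystatins and stefins was 1.60 with normexp correction and 0.26 with no background filter, which takes in the genes that were not measured. The cause of the other shifts was not tested. Over all genes, the normexp correction gave 1373 higher genes in place of 2453, and the spike-in scaling 10357. Dim signals limit the stefin A genes, Cst7 and Cst6 most, and no value here covers differences between mice.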

Other observations

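Other genes of the cystatin superfamily, outside the naming rule, were measured in part. Of 9 listed, 7 were matched on the arrays and 3 were above background on both. Cstdc4, a further stefin A-like gene of the mouse, had a signal of 121 on the tumor-draining array against 18.7 on the normal array, a log2 difference of 2.75 or 6.74-fold. Ahsg, which encodes fetuin A, a plasma glycoprotein, had 11.0 on the tumor-draining array against 52.0 on the normal array (log2 difference -2.18), and Fetub, which encodes fetuin B, had a log2 difference of -0.67. Kng1, a kininogen gene, was not well above background on the tumor-draining array and at least 2.45-fold lower there. With the normexp correction the log2 difference of Cstdc4 was 1.14, and Ahsg and Fetub lay within 2-fold. Csta3, listed beside it as another stefin A-like gene, and Kng2 and Cstl1 were above background on neither array, and BC100530 and BC117090 could not be matched to the arrays.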
